A study of Mus musculus with 11 samples.

Results

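The 8 Krüppel-like factors Klf2, Klf3, Klf4, Klf5, Klf6, Klf7, Klf10 and Klf13 were followed in the gingival epithelium of adult langerin-DTR mice. Genes were taken by name from the table of normalized counts, in which each of the 8 has a value in every mouse, out of 19170 genes with values and 55414 genes listed. All mice carried the diphtheria toxin receptor driven by langerin, which is expressed by Langerhans cells (LCs), the antigen-presenting cells of stratified epithelia, so that an injection of diphtheria toxin (DT) removes these cells. The 6 DT mice received the toxin and the 5 PBS mice phosphate-buffered saline at 17, 24 and 31 days of age, and the gingival epithelium of both groups was taken at 8 weeks of age, weeks after the last injection. The comparison addresses how the loss of LCs in the weaning period bears on transcription in the adult epithelium, and a normalized count is the number of reads on a gene divided by a scaling factor of the mouse.

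Krüppel-like factors are transcription factors with a block of C2H2 zinc fingers at the C-terminus that reads GC-rich and CACCC sequences, and they share this block with the Sp factors. Their N-terminal parts differ, so that Klf2, Klf4, Klf5, Klf6 and Klf7 are known mainly as activators that recruit acetyltransferases, Klf3 binds the CtBP co-repressors, and Klf10 and Klf13 bind the Sin3A co-repressor. In stratified epithelia Klf4 is known for terminal differentiation and barrier formation and Klf5 for the proliferating basal compartment, whereas Klf2 is best known from the endothelium and from resting T cells, and Klf6 is induced quickly after injury and other stimuli.

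The 250 bases before the RefSeq transcription start are shown for Klf2 and Klf6, which passed the threshold of the comparison, and for Klf4, which had the highest level. They come from RefSeq on GRCm38.p6 at chr8:72318812-72319061 (plus strand) for Klf2, chr13:5861239-5861488 (plus strand) for Klf6 and chr4:55532476-55532725 (minus strand) for Klf4, and are written 5′ to 3′ along the gene. Capitals mark the cAMP response element core TGACG and the EGR motif GCGGGGGCG on either strand.
Klf2: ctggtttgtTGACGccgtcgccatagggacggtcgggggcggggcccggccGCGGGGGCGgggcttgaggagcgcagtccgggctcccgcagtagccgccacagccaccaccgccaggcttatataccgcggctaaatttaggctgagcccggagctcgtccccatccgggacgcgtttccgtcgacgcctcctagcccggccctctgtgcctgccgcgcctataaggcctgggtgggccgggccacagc
Klf6: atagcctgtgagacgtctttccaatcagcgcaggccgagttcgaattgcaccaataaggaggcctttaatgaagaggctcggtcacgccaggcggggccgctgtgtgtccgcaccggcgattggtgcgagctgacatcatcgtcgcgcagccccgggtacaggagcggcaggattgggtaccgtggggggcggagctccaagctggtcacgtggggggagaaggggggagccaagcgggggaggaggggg
Klf4: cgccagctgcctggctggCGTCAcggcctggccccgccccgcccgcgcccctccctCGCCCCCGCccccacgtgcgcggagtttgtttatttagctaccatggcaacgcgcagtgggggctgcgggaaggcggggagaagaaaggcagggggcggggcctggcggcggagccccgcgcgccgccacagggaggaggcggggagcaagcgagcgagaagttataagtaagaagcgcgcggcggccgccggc

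The promoters of Klf2 and Klf4 each hold both marked motifs, and that of Klf6 holds neither. In Klf2 the core lies from base -241 to -237 and the EGR motif from -199 to -191, counted from the start, and in Klf4 they lie from -232 to -228 and from -194 to -186 on the opposite strand. The table held promoters for 6 of the 8 genes, namely Klf2, Klf3, Klf4, Klf6, Klf7 and Klf13. RefSeq starts differ in part from the gene positions given below, which are those of GENCODE. Against the latter, the stretch of Klf7 (chr1:64121390-64121639) lies wholly inside the gene. That of Klf3 (chr5:64803271-64803520) runs past the gene start, and those of Klf2 and Klf6 end inside the gene. The CACCC boxes counted for Klf2 (from base -19 to -14), Klf3 and Klf7 thus lie inside the GENCODE genes, and that of Klf13 lies before its gene. On either strand TGACG was found in 3 of the 6 (Klf2, Klf4 and Klf13) and in 17.8% of all 32851 promoters, and the EGR motif in 3 of the 6 (Klf2, Klf3 and Klf4) and in 2.57% of all. The GC box GGGCGG, a known site of Sp and Krüppel-like factors that can overlap the EGR motif, was found in 6 of the 6 and in 32.7% of all, and CCACCC, the CACCC box, in 4 of the 6 and in 28.1% of all. Neither the full cAMP response element TGACGTCA, which contains the core, nor the AP-1 site TGANTCA, nor TATAAA, nor the CArG box of serum response factor was matched in any of the 6, against 1.55%, 6.75%, 12.4% and 1.47% of all promoters. The 250 bases were rich in G and C, 71.2% in Klf2, 64.8% in Klf6 and 74.0% in Klf4, against a median of 52.4% over all promoters.

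Between 17509327 and 24325513 reads per mouse lay behind these values, and the 8 genes were covered by 25 reads (Klf2, lowest mouse) to 31057 reads (Klf4, highest mouse). Keratinocyte markers were abundant, with summed normalized counts between 2758550 and 3112880 per mouse over 12 genes, of which 0 were called and Krt10 and Krt5 had the smallest p, with log2 differences of 0.20 (adjusted p = 0.607) and 0.0921 (adjusted p = 0.655). On the first principal component PBS 3 and PBS 5 lay at 17.2 and 20.9 and the other PBS mice between -13 and -11.9, so that results are also given without these 2 mice. Cd207, which encodes langerin, was measured at 10.0 to 43.0 normalized counts in PBS and 15.8 to 21.6 in DT mice, and the difference did not pass the threshold (adjusted p = 0.853). By flow cytometry the authors report that LCs, absent during weaning, had regained normal frequencies by the age sampled here.

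Differences between DT and PBS were tested gene by gene with limma on log2(normalized count + 1). Adjusted p-values are those of Benjamini and Hochberg over all 19170 genes, and genes under 0.1 were called. Klf2 and Klf6 were higher in DT mice, and no member was lower. A rise was called for 2 of the 8 members and for 0.313% of all genes tested, and a fall for 0 of the 8 and for 0.245% of all. An unadjusted p under 0.05 was reached by 4 of the 8 (Klf2, Klf4, Klf6 and Klf7) and by 11.5% of all genes. The median log2 fold change of the 8 was 0.0692 and that of all genes tested -0.0105, with 5 members above 0 and 3 below.

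**Figure D1:**
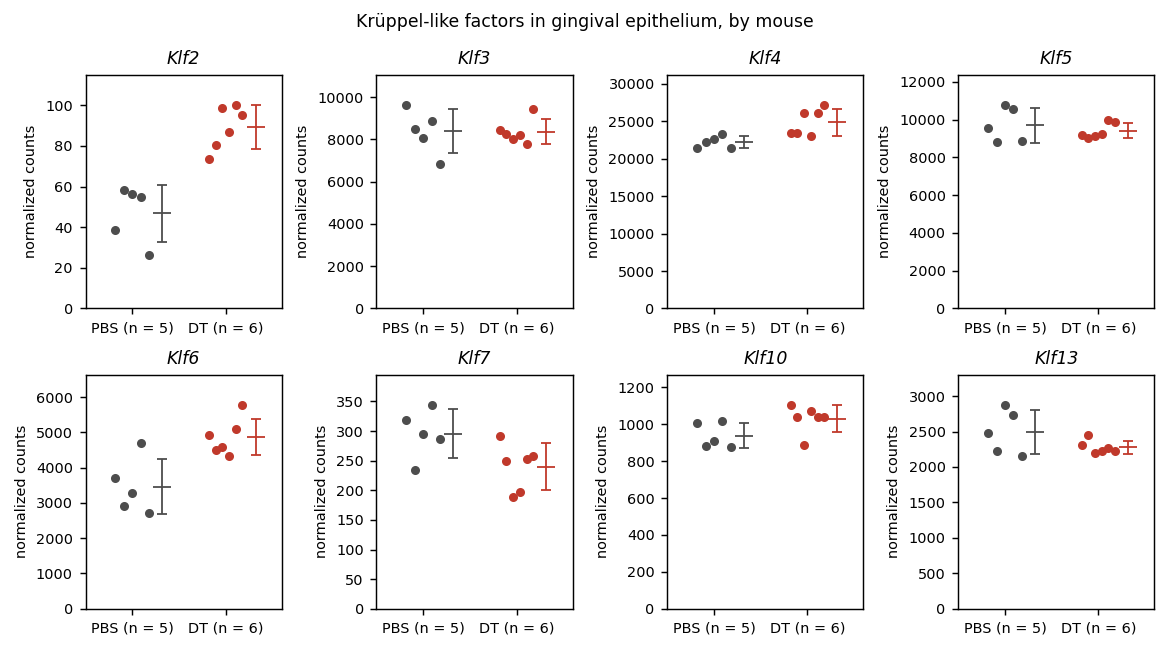
Normalized counts (vertical axes, from 0) of the 8 Krüppel-like factors in each of 5 PBS (grey) and 6 DT (red) mice, with the mean and SD beside the points. All DT mice lie above all PBS mice for Klf2 only, and for Klf6 a single PBS mouse, at 4706, reaches into the DT range.

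Among the activators, Klf2 (chr8:72319033-72321656, plus strand, GRCm38) showed the largest difference of the 8. It was measured at 38.5, 58.3, 56.3, 54.6 and 26.2 normalized counts in PBS 1 to 5 and at 73.4, 80.3, 98.7, 87.0, 100.1 and 95.4 in DT 1 to 6. The lowest DT mouse was thus above the highest PBS mouse by 15.1 normalized counts, and a separation of this kind was seen for 1 of the 8 members and for 0.902% of all genes tested. The means were 46.8 ± 13.9 (SD, n = 5) in PBS and 89.1 ± 10.8 (SD, n = 6) in DT, and the log2 fold change was 0.97 ± 0.19 (SE) with an adjusted p of 0.0488 in limma. In size this difference was at the percentile 99.5 among genes averaging 10 or more normalized counts. In bulk epithelium more cells of a type that expresses a gene and more RNA of it per cell cannot be told apart. Klf2 is known from endothelium and T cells, and the markers of neither type were called. The 9 endothelial markers with values summed to 81.8 to 133.0 normalized counts in PBS and 74.5 to 153.8 in DT, with Cdh5, the endothelial cadherin, between 1.01 and 11.5. Of the 9, 4 had a log2 difference above 0 and 5 below, with a median of -0.067. The smallest p belonged to Tek, a receptor of angiopoietins, at 0.63 (adjusted p = 0.622), and to Egfl7, at 0.51 (adjusted p = 0.799), whereas the more abundant Pecam1 was at -0.17. The 9 T cell markers summed to 297.8 to 354.0 in PBS and 231.6 to 331.7 in DT, most of it from Cd5, with Cd3g, a subunit of the T cell receptor complex, between 2.73 and 16.1. Of these 9, 1 had a log2 difference above 0 and 8 below, with a median of -0.55. Their smallest p belonged to Cd2, with a log2 difference of -0.85 (adjusted p = 0.266), and to Lat, with -1.06 (adjusted p = 0.462), and the part of either cell type in the Klf2 difference was not tested.

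Klf6 (chr13:5861482-5870394, plus strand), an early response factor of wounded and stimulated cells, was measured at 3696, 2903, 3285, 4706 and 2729 normalized counts in PBS 1 to 5. In DT 1 to 6 it was measured at 4930, 4499, 4577, 4337, 5100 and 5767. PBS 4 lay within the DT range and the other 4 PBS mice lay below every DT mouse. The means were 3464 ± 788 (SD, n = 5) and 4868 ± 523 (SD, n = 6), and the log2 fold change was 0.51 ± 0.11 (SE) with an adjusted p of 0.0800 in limma.

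Both calls depended on single mice, although the direction did not turn in any of the 22 other settings. Klf2 stayed under the threshold in 6 of the 11 fits on 10 mice and was lost without PBS 1 (adjusted p = 0.140), DT 3 (0.109), DT 4 (0.102), DT 5 (0.147) or DT 6 (0.130), with log2 fold changes between 0.78 and 1.06. Klf6 stayed under it without PBS 4 (adjusted p = 0.00259) and without PBS 5 (0.0884), and was lost when any of the other mice was left out, with adjusted p of 0.144 (PBS 1), 0.213 (PBS 2), 0.134 (PBS 3), 0.148 (DT 1), 0.116 (DT 2), 0.128 (DT 3), 0.124 (DT 4), 0.217 (DT 5) and 0.196 (DT 6). Over the 11 fits its log2 fold change lay between 0.43 and 0.63. Without PBS 3 and PBS 5 both were called, Klf2 at a log2 fold change of 0.82 (adjusted p = 0.0105) and Klf6 at 0.39 (adjusted p = 0.0603), in a fit that called 4.81% of all genes higher and 5.45% lower, many more than with all mice. The plot of the adjusted p by setting shows how close the reported values of both genes lie to 0.1.

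**Figure D2:**
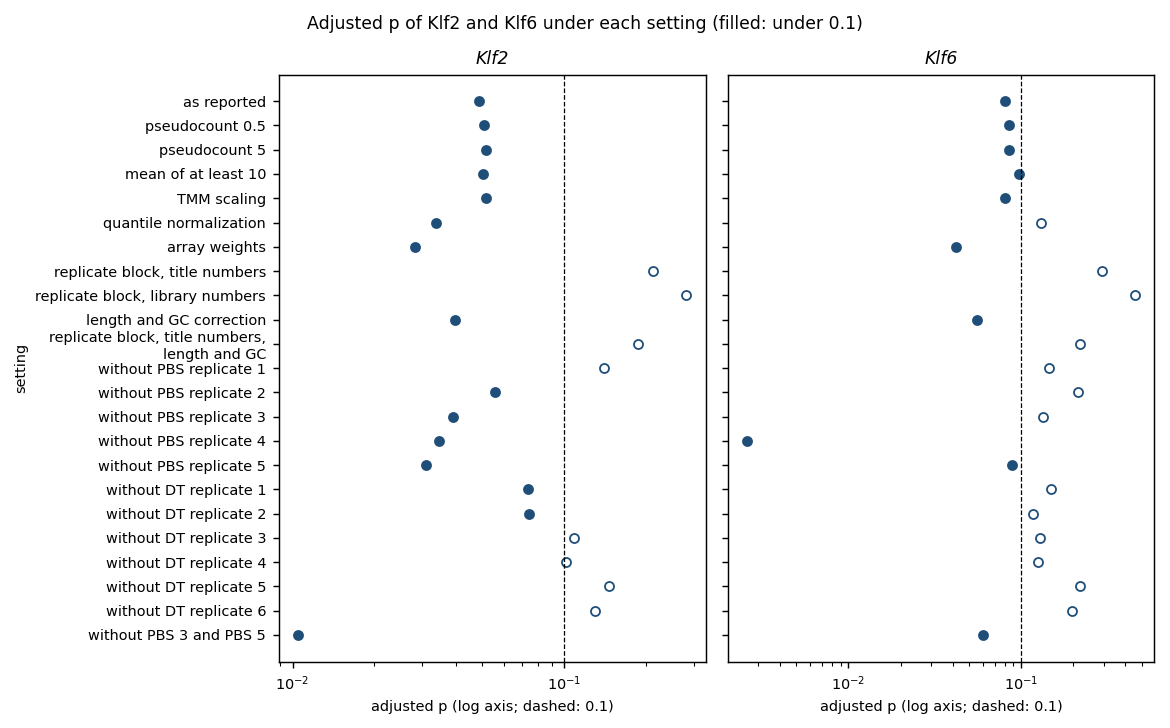
Adjusted p of limma (horizontal axes, log scale, dashed line at 0.1) for Klf2 and Klf6 as reported and under the 22 other settings (rows), filled where under 0.1. Klf2 is filled in 14 of the 22 and Klf6 in 9 of the 22.

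Klf4 (chr4:55527143-55532466, minus strand), the differentiation factor, was measured between 21443 and 23376 normalized counts in PBS and between 23020 and 27178 in DT, and 5 of the 6 DT mice lay above every PBS mouse. The means were 22241 ± 819 (SD, n = 5) and 24896 ± 1793 (SD, n = 6), a log2 difference of 0.16 with a 95% confidence interval from 0.033 to 0.29 that did not pass the threshold (adjusted p = 0.307 in limma). Klf5 (chr14:99298691-99315036, plus strand), the factor of proliferating basal cells, was measured between 8796 and 10765 in PBS and between 9041 and 9958 in DT. Its log2 difference was -0.0405 with an interval from -0.17 to 0.0897 (adjusted p = 0.851). Klf7 (chr1:64029447-64122282, minus strand), known from the development of the nervous system, was lower on average in DT mice. Its normalized counts were 319.1, 234.2, 294.7, 343.3 and 286.4 in PBS 1 to 5 and at 292.3, 249.2, 188.4, 196.5, 252.2 and 258.2 in DT 1 to 6. The groups overlapped, with 2 DT mice below every PBS mouse, and the log2 difference of -0.31 (95% interval from -0.56 to -0.0541) did not pass the threshold (adjusted p = 0.326 in limma).

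Klf3 (chr5:64803388-64832901, plus strand), the CtBP-binding repressor, had means of 8377 ± 1038 (SD, n = 5) in PBS and 8363 ± 577 (SD, n = 6) in DT. Its log2 difference was 0.0042 with a 95% interval from -0.16 to 0.17 (adjusted p = 0.990 in limma), and its sign turned in 7 of the 22 other settings. An antisense transcript, Gm20033, and a transcript on the same strand, C230096K16Rik, overlap it, but their means of 49.0 and 56.8 normalized counts were small beside its own, and neither was called.

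The Sin3A-binding Klf10 and Klf13 did not pass the threshold. Klf10 (chr15:38291463-38300706, minus strand), an early gene of TGF-beta signalling, was measured at 1005, 884.3, 906.2, 1017 and 876.1 in PBS 1 to 5 and at 1102, 1037, 887.4, 1074, 1037 and 1040 in DT 1 to 6. All DT mice except DT 3 were above every PBS mouse. The log2 difference was 0.13 (95% interval from -0.0009 to 0.27, adjusted p = 0.436 in limma). Klf13 (chr7:63886351-63938915, minus strand), known as an activator of Ccl5 in T cells, was measured between 2157 and 2869 in PBS and between 2197 and 2449 in DT, with a log2 difference of -0.12 (95% interval from -0.27 to 0.0257, adjusted p = 0.526 in limma).

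**Figure D3:**
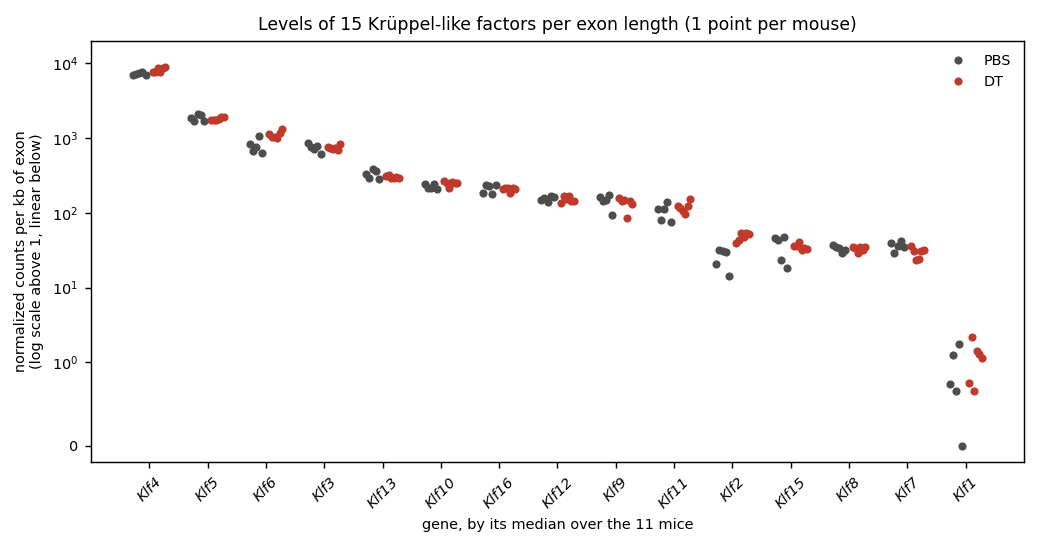
Levels of 15 Krüppel-like factors in each PBS (grey) and DT (red) mouse as normalized counts per kb of exon (vertical axis, log scale above 1), ordered by their median. Klf4, at 7030 to 8910, stands above all others, and Klf2, at 14.2 to 54.2, lies among the low ones.

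Levels were compared between genes per kb of exon, which presumes reads along the whole transcript. The library type is not settled in the sources used here. Without division by length, Klf3 had means of 8377 in PBS and 8363 in DT, and Klf6 of 3464 and 4868. Klf4 was the highest in every mouse, at 7030 to 8910 normalized counts per kb, followed by Klf5 at 1690 to 2070. Klf6, at 622 to 1310, and Klf3, at 607 to 856, overlapped and were not separated beyond their spread. Klf13 followed at 286 to 381 and Klf10 at 210 to 264. Klf2, at 14.2 to 54.2, and Klf7, at 23.2 to 42.2, overlapped at the lower end. Klf3, Klf4 and Klf5 together made up 80.6% to 84.0% of the summed level per kb of the 15 Krüppel-like factors with values. These are not the 3 highest, since the mean share of Klf6 was above that of Klf3 in both groups. The share of Klf3 was 6.21% ± 0.665 (SD, n = 5) in PBS and 5.67% ± 0.37 (SD, n = 6) in DT. The share of Klf6 was 6.53% ± 1.13 (SD, n = 5) in PBS and 8.43% ± 0.519 (SD, n = 6) in DT, and that of Klf2 was 0.210% ± 0.058 and 0.367% ± 0.0334, so that Klf2, the gene with the larger fold change, is a small part of the family's RNA in this tissue. The spread between mice of both genes was larger in PBS than in DT, with a coefficient of variation of 29.8% against 12.1% for Klf2 and of 22.8% against 10.7% for Klf6, a difference that was not tested. It was not particular to them, as Klf3 (12.4% against 6.9%), Klf5 (9.53% against 4.31%) and Klf13 (12.4% against 4.03%) had it too. Klf10 had 7.24% against 7.21%, and Klf4 (3.68% against 7.2%) and Klf7 (13.8% against 16.6%) went the other way.

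None of the 13 other Krüppel-like and Sp factors with values was called in limma, and 0 of the 13 reached an unadjusted p under 0.05, against 11.5% of all genes. Klf14, Klf17, Sp5, Sp7 and Sp8 were listed without a value. The largest difference of a gene averaging 10 or more normalized counts was that of Klf11, a TGF-beta-inducible factor that binds Sin3A, with a log2 difference of 0.22 (95% interval from -0.0988 to 0.53, adjusted p = 0.611). Sp4 followed at -0.15 (95% interval from -0.43 to 0.14). Sp6, an epithelial Sp factor with a role in teeth and skin appendages, was abundant at 502 ± 53.3 per kb in PBS and 467 ± 39.7 per kb in DT (SD, n = 5 and n = 6), and its log2 difference was -0.10 (adjusted p = 0.638). Klf9, a factor that responds to glucocorticoids, had a log2 difference of -0.0893, Klf12 of -0.0319, Klf16 of -0.0289 and Klf8 of 0.0075. Sp1 had -0.0746, Sp2 0.0198 and Sp3 0.0080. Klf1, the erythroid factor, and Sp9 were close to their detection limit, with means of 1.66 and 4.30 normalized counts.

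Klf15, a further factor induced by glucocorticoids, was measured at 127.9, 122.4, 65.4, 131.1 and 50.4 normalized counts in PBS 1 to 5 and between 88.0 and 113.8 in DT mice. PBS 3 and PBS 5, the mice that stood apart on the first component, were below every DT mouse, and the other 3 PBS mice were above every DT mouse. Its log2 difference was 0.077 with all mice (adjusted p = 0.930 in limma) and -0.38 without PBS 3 and PBS 5 (adjusted p = 0.0607), a fit in which 1 of the 13 and 5.45% of all genes were called lower.

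**Figure D4:**
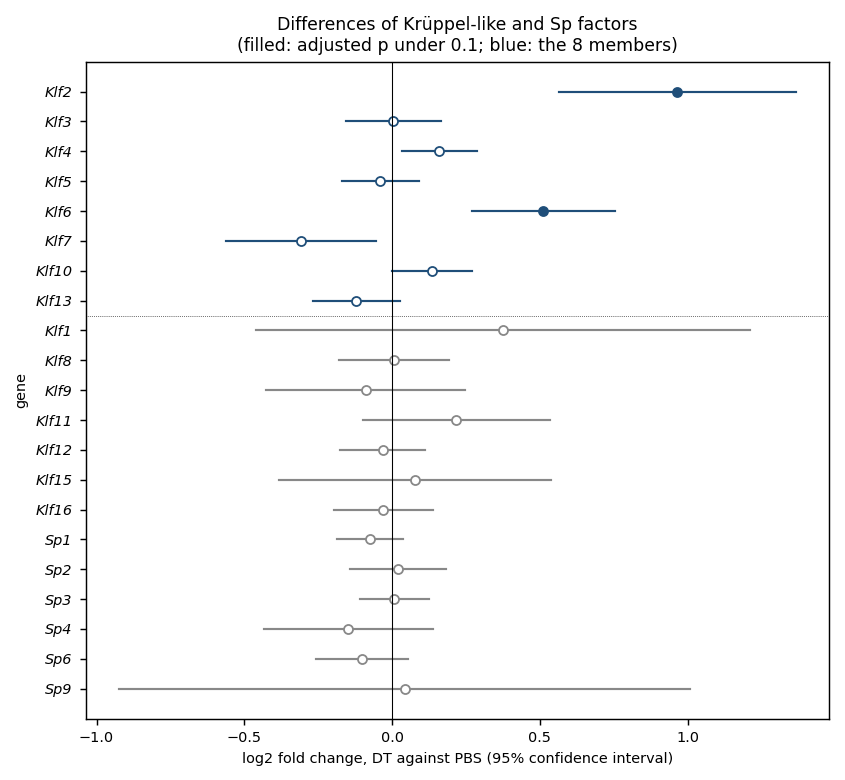
Log2 fold change of DT against PBS (horizontal axis) with the 95% confidence interval for the 8 members (blue, above the dotted line) and 13 other Krüppel-like and Sp factors (grey), filled where the adjusted p is under 0.1. Only Klf2 and Klf6 are filled, and the widest intervals are those of Sp9 and Klf1.

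The co-regulators, upstream kinases and factors and ubiquitin ligases of Krüppel-like factors were given by 27 genes, of which 0 were called and 6 reached an unadjusted p under 0.05, Yap1 upwards and 5 downwards. Of all genes tested 11.5% reached it. The smallest p belonged to Srf, the serum response factor that drives many early response genes, with a log2 difference of -0.24 ± 0.0675 (SE, adjusted p = 0.196 in limma), and to Ep300, an acetyltransferase recruited by activating Krüppel-like factors, with -0.21 ± 0.0652 (SE, adjusted p = 0.236). The median log2 fold change was -0.0399 in this list and -0.0105 over all genes tested. Without PBS 3 and PBS 5, 1 of the 27 was called higher (Wwtr1) and 4 lower (Elk4, Ep300, Mef2d and Wwp1). That fit called 4.81% of all genes higher and 5.45% lower.

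Of 22 known target genes, 21 had values, 0 were called and 3 reached an unadjusted p under 0.05, against 11.5% of all genes. Plau, the urokinase gene and a target of Klf6, was at 1044 ± 136 (SD, n = 5) normalized counts in PBS and 1204 ± 65.7 (SD, n = 6) in DT, with a log2 difference of 0.21 (adjusted p = 0.275 in limma). Thbd, which encodes thrombomodulin and is a target of Klf2 in endothelium, had a log2 difference of 0.31 (adjusted p = 0.362). Without PBS 3 and PBS 5 both were called higher and Cdkn1b, a cell cycle inhibitor, was called lower, beside the shares of all genes given above for that fit.

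Immediate early genes, which like Klf6 are transcribed within minutes of a stimulus, moved in the same comparison. Of 27 with values 14 were called higher and 0 lower, against 0.313% and 0.245% of all genes tested. Their summed normalized counts were 47799 to 91469 in PBS and 95808 to 143741 in DT. Fos, a subunit of AP-1, was measured at 5327, 3296, 3906, 9475 and 2282 in PBS 1 to 5 and at 13519, 10882, 14366, 12257, 16520 and 17819 in DT 1 to 6. The PBS mouse with the most Fos was PBS 4 and the one with the least was PBS 5, which held the highest and the lowest Klf6 value of the PBS mice as well.

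Across the 11 mice, with the group means removed, Klf6 was correlated with Fos (Pearson's r = 0.959, exact permutation p = 0.000104, adjusted p = 0.00153 over 24 relations of the 8 members with Fos, Egr1 and Atf3). Spearman's rho was 0.964 (exact permutation p = 0.000255), r without PBS 4 and PBS 5, the mice farthest from the median, was 0.904, and r within the 6 DT mice was 0.856. With Egr1, a zinc finger factor of the same response, Klf6 had an r of 0.957 and a rho of 0.936 (exact permutation p = 0.000127 and 0.000347, adjusted p = 0.00153), and 0.914 without the same mice. With Atf3, a stress-induced factor, r was 0.915 and rho 0.818 (exact permutation p = 0.000544 and 0.00682, adjusted p = 0.00435), and 0.702 without PBS 4 and DT 6. These were 3 of the 24 relations, and the other 21 did not pass an adjusted p of 0.05. For Klf2 and Fos r was 0.523 and rho 0.182 (exact permutation p = 0.308 and 0.597, adjusted p = 0.336), and r was -0.177 without PBS 4 and PBS 5 and 0.653 within the 6 DT mice. For Klf4 and Fos r was 0.553 and rho 0.618 (exact permutation p = 0.0121 and 0.0115, adjusted p = 0.0726), and 0.554 without these mice. The difference between the correlations of Klf6 and Klf2 was not tested, and the part of the immediate early genes in the Klf6 difference was not tested.

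**Figure D5:**
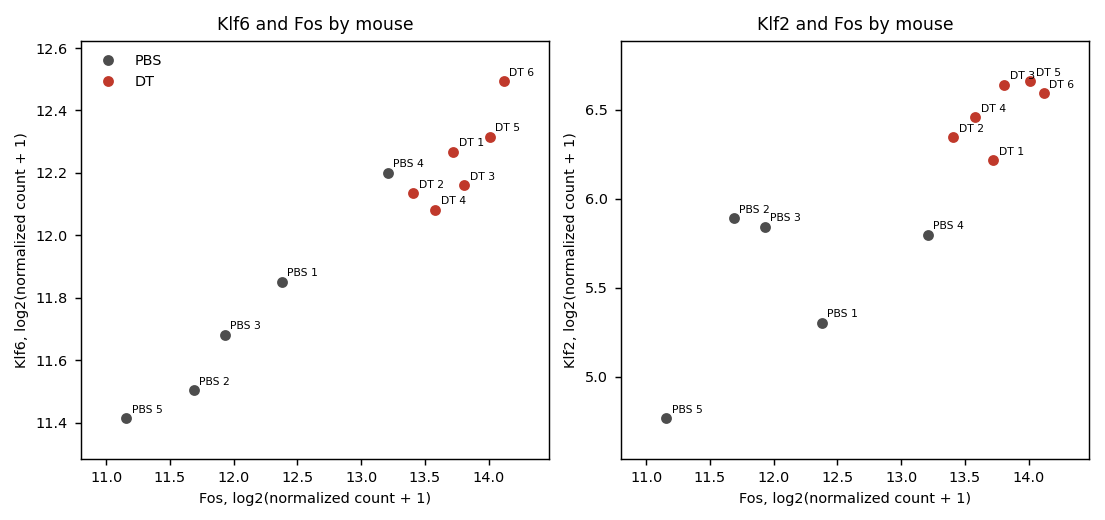
Klf6 (left) and Klf2 (right) against Fos in each mouse, as log2(normalized count + 1) on all axes, with PBS mice in grey and DT mice in red. Klf6 rises with Fos from PBS 5 to DT 6 with PBS 4 beside the DT mice, whereas Klf2 of PBS 4 stays at the level of PBS 2 and PBS 3.

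Among the 28 pairs of members, 25 correlations were positive and 3 negative after the group means were removed. None passed an adjusted p of 0.05 and 6 reached an unadjusted exact permutation p under 0.05. The smallest p was that of Klf2 and Klf4 (r = 0.576, rho = 0.527, exact permutation p = 0.0116 and 0.0175, adjusted p = 0.164), with 0.576 without the 2 mice farthest from the median. Klf2 and Klf6, the members that were called, had an r of 0.381 and a rho of 0.155 (exact permutation p = 0.447 and 0.672, adjusted p = 0.597), and r was 0.049 without the 2 farthest mice.

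Over 11 mice and the 13477 genes averaging 10 or more normalized counts, the genes most like Klf6 after the group means were removed were Pigv (r = 0.98), Tbck (r = 0.96) and Ppp1r10 (r = 0.96), whose log2 differences between the groups lay between 0.0328 and 0.10. Those most like Klf2 were Aldh16a1 (r = 0.91), Gm48226 (r = 0.91) and Tom1l1 (r = 0.89), with log2 differences between -0.15 and 0.12. None of these 6 genes was called, and with so many genes compared such values are descriptions without a test. The nearest genes with values on either side of the 8 members were 16, of which 0 were called and 3 reached an unadjusted p under 0.05. Of all genes tested 11.5% reached it.

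Markers of further cells that the epithelial preparation could hold were measured beside these results, and 0 of them were called in limma with all mice. Of 10 LC markers 10 had a log2 difference below 0, with summed normalized counts of 2926, 3204, 5728, 2646 and 4716 in PBS 1 to 5 and 1999 to 3573 in DT. A part of these sums came from Epcam, which is also on the keratinocyte list, at 565 to 818 in PBS and 520 to 738 in DT. Mfge8 added 548 to 838 in PBS and 421 to 664 in DT, whereas Cd207 was low, as given above. The sums above the DT range were those of PBS 3 and PBS 5, and without these mice 7 of the 10 were below 0 and 0 were called. Their smallest p belonged to Ccr6, at -1.27 (adjusted p = 0.283), and to Mfge8, at -0.35 (adjusted p = 0.313). The 9 myeloid markers with values summed to 667.5 to 1838 in PBS and 671.9 to 2087 in DT, and Csf1r (-0.46) and S100a8 (0.60) had the smallest p. The 7 fibroblast markers, most of it Dcn, summed to 1658 to 1885 and 1482 to 2050, with Col1a1 (-0.53) and Col3a1 (-0.48) first by p. The 5 B cell markers summed to 11.7 to 73.8 and 12.7 to 32.1, with Pax5 (-0.76) and Cd79b (-0.92) first. All 5 had a log2 difference below 0, with a median of -0.77. The 5 red cell markers summed to 92.8 to 267.6 and 76.9 to 162.9, with Alas2 (-0.45) and Hba-a1 (-0.56) first. The 8 mural and muscle markers summed to 596.4 to 795.0 and 482.6 to 644.7, with Cspg4 (-0.28) and Acta2 (-0.37) first. Of the nerve and melanocyte markers S100b, which was first by p, was at 0 in each PBS mouse and at 0 to 4.29 in DT mice. Values in parentheses are log2 differences, and the adjusted p of these genes lay above 0.1. Without PBS 3 and PBS 5, S100a8 was called higher and Col1a1, Col1a2 and Cspg4 were called lower, beside the shares of all genes given above for that fit. The summed ranges of PBS and DT that are given here overlapped in each list, and their part in the Klf2 and Klf6 differences was not tested.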

How the data were processed

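RNA from the gingival epithelium of 11 langerin-DTR mice (5 PBS, 6 DT) was sequenced. The authors' reporting summary names a stranded mRNA kit, whereas their methods process the reads by the QuantSeq guide. Which library type was used is not settled here. The authors trimmed the reads, aligned them with TopHat to the mouse genome, counted them per gene with HTSeq and scaled each library by a DESeq2 size factor, so that the deposited values are normalized counts, with this factor as the only normalization. The methods name GRCm38, whereas the submitters' processing notes name GRCm39, cutadapt 2.10, TopHat2 2.1.1, HTSeq 2.01 and DESeq2 1.36.0. Whether reads were counted by strand is not given in the sources used here. Of 55414 genes listed, 36244 have no value and were not tested, and the smallest summed read number of a gene with values is 10.

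Low values (up to 100 reads) were whole multiples of what 1 read is worth, to within 0.1 read, for 100% of them in each mouse, which gave a depth of 17509327 to 24325513 reads. This depth was used for description only. Counting error matters for genes of a few reads and is small for the 8 members except Klf2. Values were tested as log2(normalized count + 1) with limma 3.58.1 in R 4.3.3 (intensity trend, no covariate, all 11 mice), Benjamini-Hochberg adjusted over all 19170 genes, with calls at an adjusted p under 0.1. Correlations used log2 values after subtracting group means, with two-sided exact permutation over all 86400 orders within groups. Positions and exon lengths came from GENCODE M21 on GRCm38, matched by gene identifier for 19117 of 19170 genes (99.72%), and promoters came from RefSeq on GRCm38.p6, read by gene symbol. The procedure was tested on simulated data.

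The members and gene lists were chosen with earlier results of these data known, and the relations with Fos, Egr1 and Atf3 and the fit without PBS 3 and PBS 5 were added after the values were seen. Genes were named by rule, namely all members, all other family genes with values, of each list the genes past the threshold or else the 2 with the smallest p, Fos, Egr1 and Atf3 beside a member, and the 3 genes most like each called member. Some items that the rule names are not reported here. Cd207, Epcam, Cdh5, Pecam1, Cd3g, Cd5, Dcn, Yap1, Thbd and the list genes called without PBS 3 and PBS 5, named beside a count or a sum, fall outside the rule and were picked once their values were known. Alternatives were other pseudocounts (0.5 and 5), a minimum mean of 10, TMM scaling, quantile normalization, array weights, a length and GC correction, a block on replicate or library numbers, and the omission of each mouse in turn. The PBS and DT groups share replicate numbers, and whether these numbers pair the mice could not be decided.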

Additional observations from a re-analysis of the deposited data

Results flagged for a closer look

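Of the 42 groups of values checked (PBS and DT mice for each of the 21 Krüppel-like and Sp factors with values), 2 held a mouse that stood apart from the others of its group, and chance alone flags about 1 in 20 groups. DT 3 had 887.4 normalized counts of Klf10, whereas the remaining DT mice had 1037 to 1102. DT 4 had 491.7 normalized counts of Klf16, whereas the remaining DT mice had 558.2 to 576.9.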

How the results depend on the processing

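The number of members called was 2 as reported, 1 with quantile normalization (Klf2), and 0 with the replicate block by title numbers, by library numbers, and by title numbers with the length and GC correction. Leaving out a mouse gave between 0 and 2. The correlations of deviations of mice with the same title number were 0.0879, 0.172, -0.233, -0.209 and 0.324. They were not set against those of differently numbered mice, so that they cannot decide whether the numbers pair the mice. In limma the replicate block gave adjusted p of 0.213 and 0.282 for Klf2 with title and library numbers, and of 0.294 and 0.454 for Klf6. By title numbers DT 6 has no PBS mouse in its block, and by library numbers DT 5 has none. The log2 fold changes are therefore those of the fits without DT 6 and without DT 5 (Klf6 at 0.46 and 0.5), not separate estimates. No member was called in those fits either, so the block and the loss of that mouse cannot be told apart in the calls. Over all genes 107 calls became 189 with array weights, 168 with the length and GC correction (122 higher, 46 lower, against 60 and 47), 35 and 0 with the replicate block by title and library numbers (0 with 1404 genes at an unadjusted p under 0.05), 38 with the block and the correction, 1967 without PBS 3 and PBS 5, and 27 to 259 when a mouse was left out (27 without DT 5, 259 without PBS 5). Among the 13 other family genes 1 was called without PBS 3 and PBS 5. None of the 28 pairs passed in any of the 12 other settings. The tests on counts with edgeR and DESeq2, planned as alternatives, were not run. The deposited values are normalized, and PBS 3 and DT 3, in which 1 read is worth nearly 1 normalized count, did not pass the criterion for taking reads back from them.

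Klf4, Klf5, Klf7, Klf10 and Klf13 kept their direction and stayed above the threshold in the 22 other settings. Signs turned for the following genes, none of which was called with all mice. Klf3 was at -0.0322 with array weights, -0.0461 with quantile normalization, -0.0316 with the block by title numbers, -0.11 without PBS 3 and PBS 5, and -0.0672 to 0.0564 without single mice. With array weights Klf15 was at -0.0775, Klf8 at -0.0176 and Sp3 at -0.0120, with the block by title numbers Klf8 was at -0.0066, with that by library numbers Sp3 was at -0.0141 and Sp9 at -0.19, with quantile normalization Sp3 was at -0.0064, with the length and GC correction Klf16 was at 0.0005, and with both block and correction Klf12 was at 0.0143. Without PBS 3 and PBS 5 Klf1 was at -0.0304, Klf8 at -0.0018, Klf15 at -0.38, Klf16 at 0.0594 and Sp3 at -0.0627. Without single mice the range was -0.044 to 0.0509 for Klf8, -0.24 to 0.0356 for Klf9, -0.0699 to 0.0007 for Klf12, -0.14 to 0.20 for Klf15, -0.0867 to 0.0098 for Klf16, -0.0357 to 0.0772 for Sp2, -0.0248 to 0.0349 for Sp3 and -0.23 to 0.28 for Sp9.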
